A study of Mus musculus with 3 samples.

Results

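The unfolded protein response and endoplasmic reticulum (ER) folding genes are 39 genes taken by gene symbol from the 36172 genes of the deposited table, and where a symbol was repeated the entry with the most reads was used. They comprise 5 sensors and transcription factors, 10 chaperones and cochaperones, 7 disulfide bond enzymes, 10 genes of ER-associated degradation and 7 subunits of the translocon and the translocon-associated protein (TRAP) complex. Their mRNA was measured by RNA sequencing in LSK cells, the lineage-negative, Sca1-positive, c-Kit-positive fraction of bone marrow that contains hematopoietic stem cells and early progenitors. There was 1 library each of Calr del10/WT, Calr ins2/WT and Calr WT/WT mice on a C57BL/6 background, called del10, ins2 and WT here. The cells of 1 library came from 4 pooled males that were 3 months old, so the spread between mice was not measured. Both knock-in lines carry 1 frameshifted copy of Calr in the whole animal, made with CRISPR-Cas9, and the other copy is intact. No agent was given to any of these mice, as far as the labels state. No genotype was repeated, so the differences are between single libraries and carry no p-value.

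Calr encodes calreticulin, a lectin chaperone that holds glycoproteins in the ER lumen until they are folded. When unfolded proteins accumulate there, 3 membrane proteins signal to the nucleus. IRE1 splices the mRNA of the transcription factor XBP1, PERK slows translation by phosphorylating eIF2 alpha, and ATF6 is cut in the Golgi apparatus to release a transcription factor. The chaperone BiP, made from Hspa5, binds these sensors at rest and is itself a main target of the response. Cells of secretory type, such as plasma cells, are known for high use of this pathway.

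ATF6 and XBP1 are known to act through the ER stress response element (ERSE), whose CCAAT end is bound by the factor NF-Y, and through a shorter form, ERSE-II. The promoter windows of RefSeq on GRCm38.p6 cover 250 bases before and 50 bases after a transcript start, and 32 of the 39 genes had one. The letters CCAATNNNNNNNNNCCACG, read on both strands, were found in 8 of these 32 genes (25.0%), against 37 of all 27025 genes with a window (0.137%). The letters of ERSE-II, ATTGGNCCACG, were found in 2 of the 32 genes (6.25%), against 12 of 27025 (0.0444%). ATTGG is CCAAT read on the other strand, and no gene held exact matches to both patterns. With 1 mismatch allowed, ERSE was found in 13 of the 32 genes (40.6%) and in 1.72% of all genes. The 27025 genes include these 32 and were not limited to genes with reads. The 32 genes were listed for their part in this response, so their higher shares are a description and no test. The 7 genes with no window used here are Atf6, Hyou1, Hspa13, Manf, Derl1, Sec61a1 and Ssr2.

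The sequences given here are those of the genes that lay past 2-fold in at least 1 comparison, followed by both matches of Hsp90b1, whose level hardly differed. Capitals mark the fixed letters of the motif, and each sequence is written 5′ to 3′ along the strand that carries it.
Hspa5, chr2:34772015-34772053, plus strand: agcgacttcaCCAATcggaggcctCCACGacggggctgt
Dnajc3, chr14:118937817-118937855, plus strand: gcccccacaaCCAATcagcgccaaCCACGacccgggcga
Syvn1, chr19:6046522-6046560, plus strand: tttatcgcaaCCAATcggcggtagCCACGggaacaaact
Dnajb11, chr16:22857843-22857871, plus strand: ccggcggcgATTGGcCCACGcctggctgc
Herpud1, chr8:94386368-94386396, plus strand: cgggcgctgATTGGgCCACGttggacact
Hsp90b1, chr10:86705523-86705561, plus strand: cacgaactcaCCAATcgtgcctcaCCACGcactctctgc
Hsp90b1, chr10:86705628-86705666, minus strand: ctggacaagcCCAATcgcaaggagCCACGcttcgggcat
The Hspa5 match spans bases -65 to -47, counted with the start base as 0, and the 140 bases before the start of the gene give its surroundings.
Hspa5, chr2:34771950-34772089, plus strand: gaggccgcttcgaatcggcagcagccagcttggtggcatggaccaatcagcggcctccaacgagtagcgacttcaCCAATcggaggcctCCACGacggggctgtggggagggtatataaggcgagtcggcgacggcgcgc
The match of Dnajb11 begins 7 bases after the start and lies in transcribed sequence, while the other matches lie upstream. The remaining ERSE matches were in Creld2, Derl3, Ero1lb and Pdia6. A match describes the letters in the window and shows neither binding nor a cause.

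**Figure D1:**
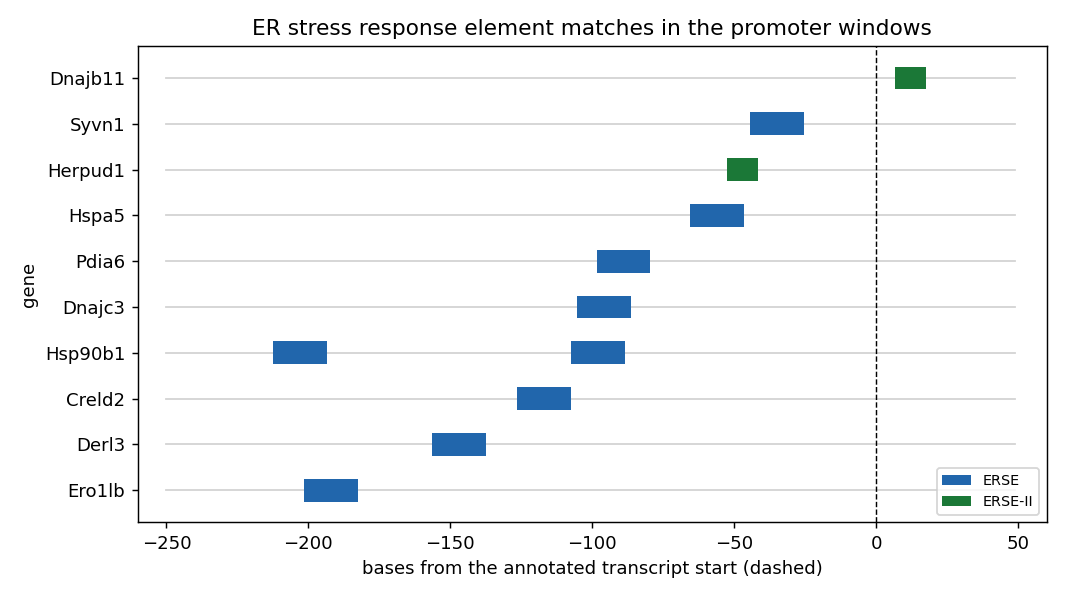
Position of exact ERSE (blue) and ERSE-II (green) matches in the promoter windows of the 10 genes that hold one, in bases from the annotated transcript start (dashed line at 0), with 1 row per gene and the searched window in grey. The Hspa5 match lies at -65 to -47, Hsp90b1 has matches beginning at -212 and -107, and only the Dnajb11 match lies after the start.

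The libraries summed to 9823095 to 11111698 reads, and Rn45s, the precursor of ribosomal RNA, made up 14.99% to 16.7% of them. Normalized counts are the deposited counts scaled by the trimmed mean of M-values (TMM), and ratios are on log2(normalized count + 1). They were described for a main set of 7073 genes, which are the genes at or above the median of the mean normalized counts (215.3) among the 14145 genes with any read. Of the 39 genes, 33 were in the main set. The commonest low read count per gene was 16 in del10, 21 in ins2 and 61 in WT, and it was taken as the approximate number of reads from 1 starting fragment. This unit was chosen after the data were examined. Intervals below are 95% exact binomial intervals on such fragments and cover counting error only. Of the 33 genes, 10 had under 10 fragments in WT, among them Ern1, Dnajc3, Pdia4, Ero1l and Edem2.

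The sorted cell type was only partly borne out by its markers. Kit, which encodes c-Kit, had 4177 normalized counts in del10, 3082 in ins2 and 286 in WT. Ly6a, which encodes Sca-1, had 51.9 in del10, 120.1 in ins2 and 145 in WT, and the progenitor marker Cd34 had 1664 in del10, 727 in ins2 and was listed at 0 in WT. The Ly6a values rest on 51 reads in del10, 122 in ins2 and 132 in WT, which are few fragments. Ly6a was outside the main set, and the order of its values is not read as a difference. The 14 stem and progenitor markers summed to 17136 in del10 (13 detected), 14080.1 in ins2 (12 detected) and 2879 in WT (9 detected, with Cd34 among those at 0). The 12 B-lineage markers, all detected in each library, summed to 9432 in del10, 8894 in ins2 and 39277 in WT. The plasma cell markers, 6 of 7 matched, summed to 3273 in del10, 2992 in ins2 and 13916 in WT, mostly from Irf4, and Tnfrsf17 and Xbp1 were listed at 0 in all 3, of which Xbp1 is a gene that most cells use, so its 0 says nothing about plasma cells. The 11 basophil, mast cell and eosinophil markers summed to 26017 in del10, 17900 in ins2 and 1504 in WT. The 7 stromal markers summed to 2248 in del10, 3560.5 in ins2 and 8148 in WT, and the 9 neutrophil and granule markers to 4185 in del10, 2171 in ins2 and 1766 in WT. The 8 T and NK markers summed to 6622 in del10, 14504.5 in ins2 and 6047 in WT. The part of these cells in any ratio to WT below was not tested, and fewer cells of a type cannot be told apart from less RNA per cell. Both comparisons with WT share the same WT library.

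The ER genes together took 0.560% of reads in del10, 0.489% in ins2 and 0.481% in WT. Hspa5 accounted for 25.0% of these reads in del10, 16.1% in ins2 and 13.9% in WT. In del10 against WT, 5 of the 33 genes were over 2-fold higher (Ern1, Hspa5, Dnajc3, Pdia4 and Ero1l) and Atf6 was over 2-fold lower, while 15.3% of all main-set genes were over 2-fold higher and 10.2% over 2-fold lower. In ins2 against WT, 5 were over 2-fold higher (Ern1, Dnajc3, Pdia4, Ero1l and Edem2) and 6 were over 2-fold lower (Atf6, Dnajb11, Manf, Edem3, Syvn1 and Herpud1), while 15.7% of all genes were over 2-fold higher and 10.7% lower. The counts of higher genes lay close to the background and are not a result about these genes. No test was possible for the counts of lower genes. The median log2 ratio of the 33 genes was -0.04 in del10 against WT (95% order-statistic interval -0.24 to 0.49) and 0.15 in ins2 against WT (-0.27 to 0.49), and the median of all genes was 0.04 in each. Both intervals include the median of all genes. They reflect the spread among these chosen genes, not between mice or libraries, so this is no test.

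Past 1.5-fold in either direction lay 15 of the 33 genes in del10 against WT, where 47.6% of all genes did. The same count of 15 was found in ins2 against WT, where 48.2% of all genes did. The fragment interval lay beyond 2-fold for Ern1 alone in each comparison with WT, against 3.04% of all genes in del10 and 2.63% in ins2. Ern1 lay under the cut of 215.3 in WT (83.2) and entered the main set through the knock-in libraries, where it is high. Edem2 did so as well, with 190.2 in WT. The highest of the 3 normalized counts was in del10 for 7 genes, in ins2 for 12 and in WT for 14. The same split was not counted over all genes, so it is a description only and not a trait of these genes.

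**Figure D2:**
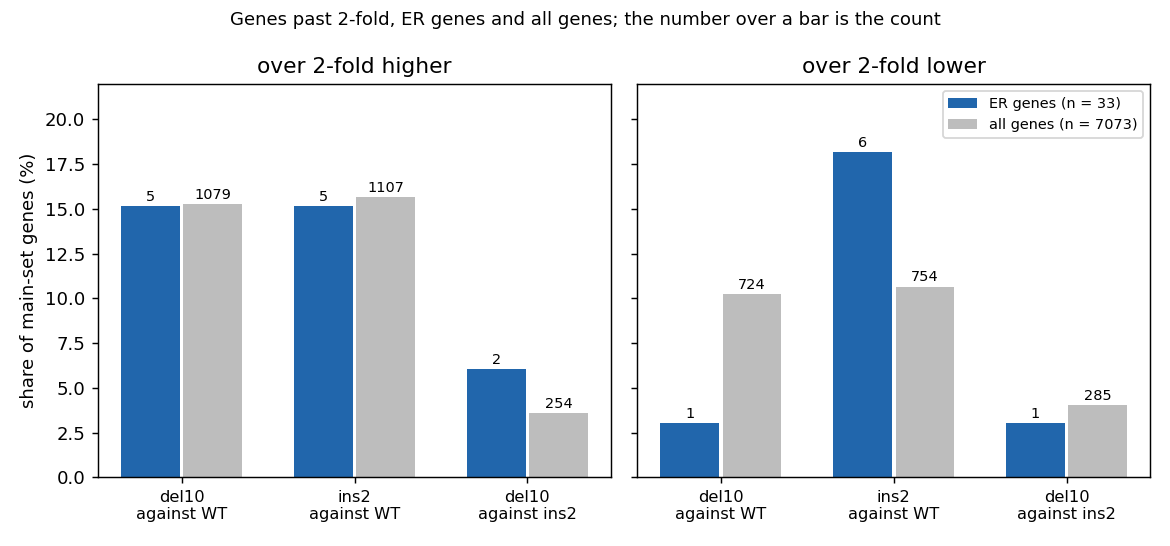
Share of genes over 2-fold higher (left) or lower (right) in each comparison, in percent, for the 33 ER genes (blue) and all 7073 genes (grey), with the count over each bar. The ER genes stand close to all genes for higher levels, and 1 was lower in del10 and 6 in ins2 against WT.

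Among the sensors, the IRE1 and ATF6 genes stood on opposite sides of WT. Ern1, which encodes IRE1 alpha, had 998 normalized counts in del10, 863 in ins2 and 83.2 in WT. Its ratio to WT was 12.0 in del10 (interval 2.56 to 595) and 10.4 in ins2 (interval 2.199 to 523). The WT value rests on 1.24 estimated fragments, which sets the width of both intervals. Ern1 passed the filter of the main set only through del10 and ins2, so its distance from WT is in part built into the selection. Atf6 had 910.3 normalized counts in del10, 739.9 in ins2 and 1970.4 in WT. Both knock-in libraries lay below WT, at 0.462 of its level in del10 (0.295 to 0.762) and 0.375 in ins2 (0.228 to 0.647).

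Eif2ak3, which encodes PERK, had 1037 normalized counts in del10, 1176 in ins2 and 1606 in WT, and its intervals against WT spanned 1 (0.400 to 1.08 in del10 and 0.447 to 1.23 in ins2). Atf6b, a paralog of Atf6, had 754 in del10, 501 in ins2 and 759 in WT, and its log2 ratio to WT was -0.01 in del10 and -0.60 in ins2. Neither was past 2-fold in any comparison. Xbp1, the transcription factor downstream of IRE1, was listed at 0 in all 3 libraries, and no ratio can be given for it. Most cells use Xbp1, so a listed 0 does not show that its mRNA was absent. Splicing of its mRNA cannot be read from a count per gene.

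**Figure D3:**
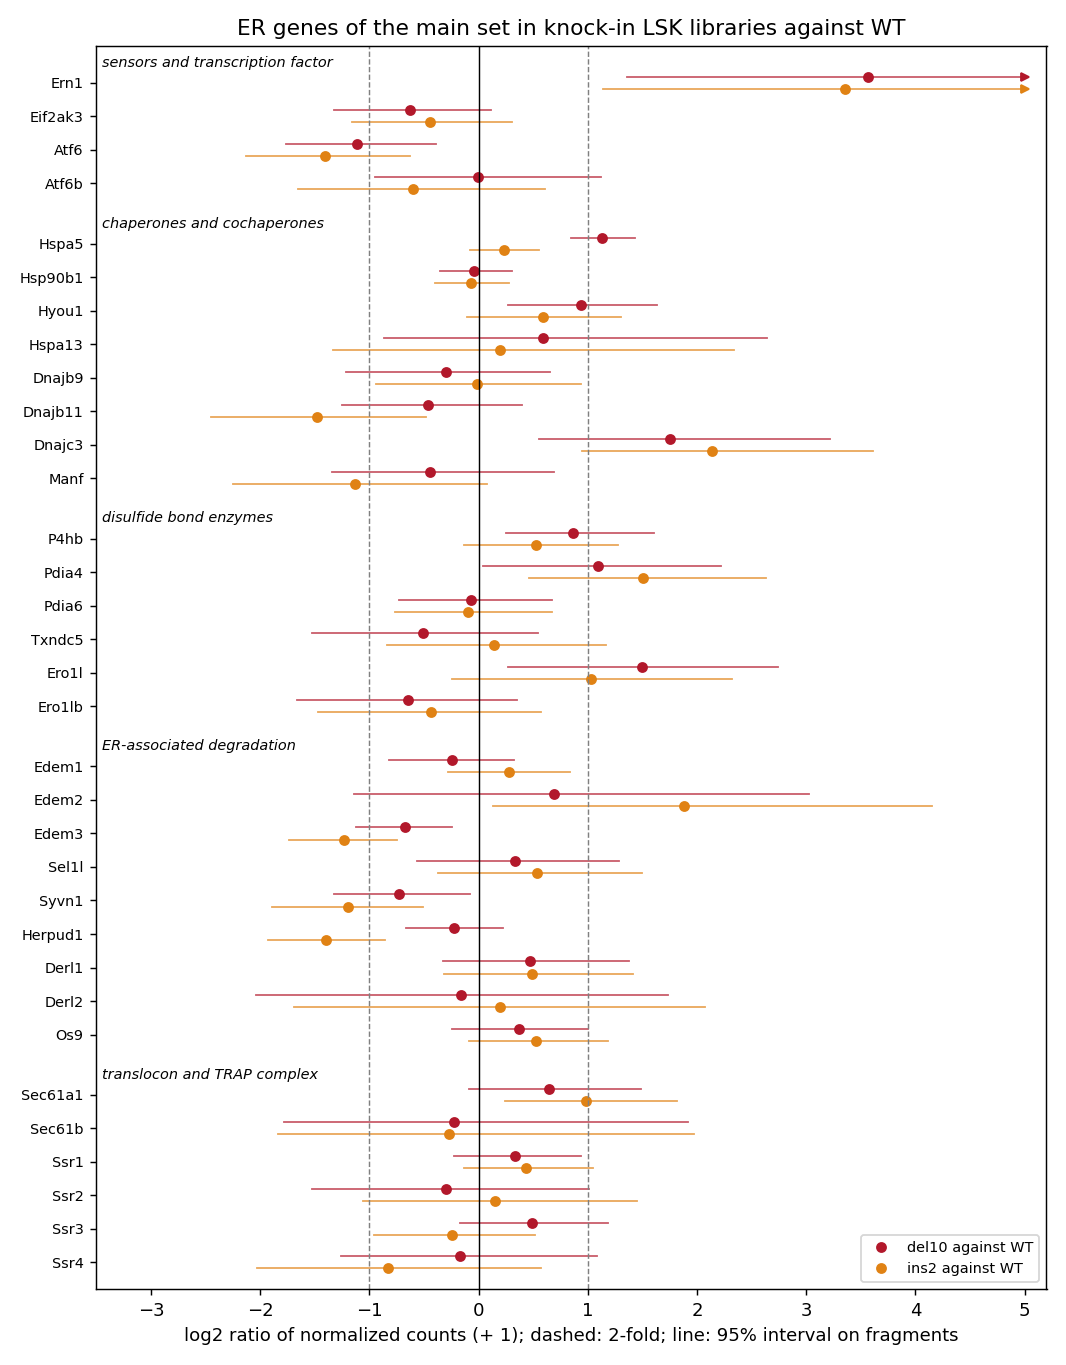
Log2 ratio of normalized counts of each of the 33 main-set ER genes in del10 (red) and ins2 (orange) against the shared WT library, grouped by role, with 95% intervals on estimated fragments and dashed lines at 2-fold. Ern1 stands apart at 3.57 in del10 and 3.36 in ins2 (intervals run past the axis where an arrow is drawn), and no interval but that of Ern1 lies wholly beyond 2-fold.

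Among the chaperones, Hspa5 was the gene in which del10 stood apart from both other libraries. Hspa5 had 15861 normalized counts in del10, 8519.7 in ins2 and 7251 in WT. It was 2.19-fold higher in del10 than in WT (1.79 to 2.70) and 1.86-fold higher in del10 than in ins2 (1.66 to 2.09). In ins2 it was 1.17-fold its WT level, with an interval that included 1 (0.949 to 1.47). Hsp90b1, which encodes the ER form of HSP90 known as GRP94, had 6349 in del10, 6199 in ins2 and 6526 in WT. Its ratio to WT was 0.973 in del10 (0.780 to 1.23) and 0.9498 in ins2 (0.756 to 1.21), and both intervals included 1.

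Hyou1, a BiP partner that exchanges its nucleotide, had 2782 normalized counts in del10, 2189 in ins2 and 1455 in WT. The ratio to WT was 1.91 in del10 (1.21 to 3.09) and 1.505 in ins2 (0.931 to 2.47), under 2-fold in each. Hspa13, an HSP70-like ATPase of microsomes, had 422 in del10, 321 in ins2 and 280.4 in WT, the last from 4.18 fragments.

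The J-domain cochaperones of BiP differed among themselves. Dnajc3, known as p58IPK and also as an inhibitor of PERK, had 1341 normalized counts in del10, 1755 in ins2 and 398 in WT. Both knock-in libraries lay above WT, with a ratio of 3.37 in del10 (1.46 to 9.31) and of 4.41 in ins2 (1.92 to 12.2). Dnajb11, known as ERdj3, had 883 in del10, 438 in ins2 and 1220.5 in WT. Its ins2 level was 0.359 of WT (0.182 to 0.716), and its del10 level was 0.724 of WT with an interval that included 1 (0.421 to 1.32). Dnajb9, known as ERdj4, had 751 in del10, 915 in ins2 and 926 in WT, within 2-fold in each comparison. The Dnajb9 pseudogene Gm6568 had 38 reads in del10, 32 in ins2 and 79 in WT, and reads could be split between them.

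Manf, a small protein of the ER that is also secreted, had 614 normalized counts in del10, 381 in ins2 and 836 in WT. It was over 2-fold lower in ins2 at 0.456 of WT, although the interval reached 1.05. Creld2, an ER protein known to be induced by ER stress, had 190.0 reads in del10, 236 in ins2 and 115 in WT and was outside the main set. Sdf2l1, a partner of ERdj3, had 178 reads in del10, 75.8 in ins2 and none in WT. With reads as the counting unit, the interval of the Sdf2l1 ratio to WT began at 44.2 in del10 and at 18.0 in ins2. On fragments it began at 0.610 in del10 and at 0.203 in ins2, so a difference was not detectable at this depth.

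**Figure D4:**
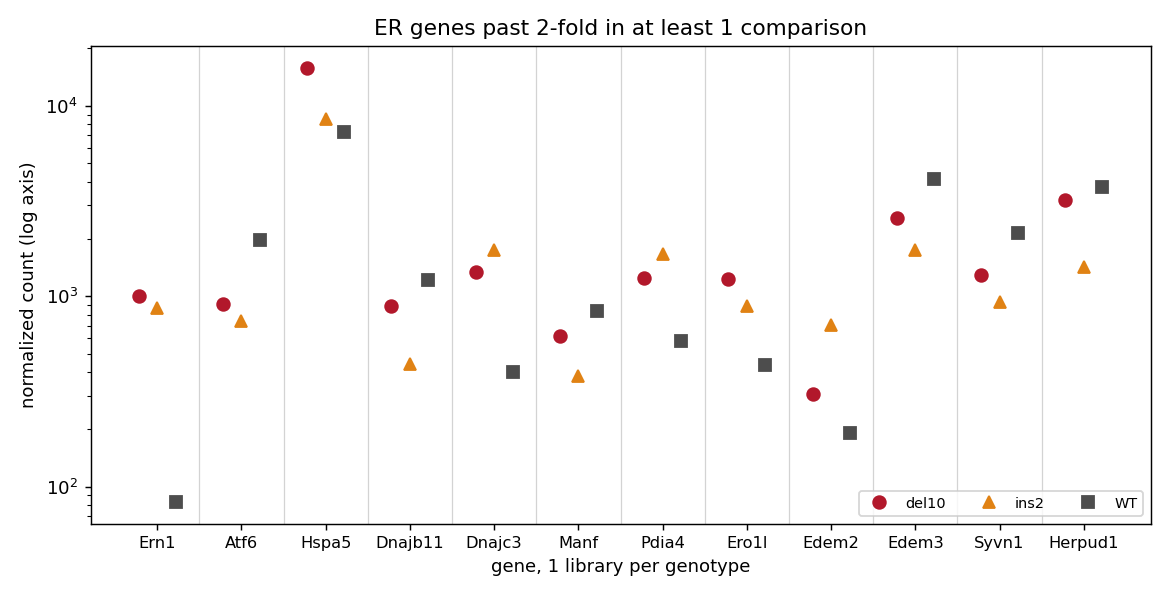
Normalized counts (log axis) of the 12 ER genes past 2-fold in at least 1 comparison, in the del10 (red circles), ins2 (orange triangles) and WT (grey squares) libraries, 1 library per genotype without error bars. Ern1, Dnajc3, Pdia4 and Ero1l lie above WT in both knock-in libraries, Atf6 lies below WT in both, and Herpud1 and Dnajb11 lie lowest in ins2.

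Among the disulfide bond enzymes, 2 of the 6 main-set genes were over 2-fold higher in each knock-in library and none was over 2-fold lower, where 15.3% of all genes were higher and 10.2% lower in del10 and 15.7% higher and 10.7% lower in ins2. With so few genes this count is a description only. Pdia4, a protein disulfide isomerase also known as ERp72, had 1246 normalized counts in del10, 1658 in ins2 and 582 in WT. The ratio to WT was 2.14 in del10 (1.03 to 4.66) and 2.85 in ins2 (1.37 to 6.21). Ero1l, the oxidase that recharges disulfide isomerases, had 1230.2 in del10, 890.1 in ins2 and 437 in WT. The ratio to WT was 2.82 in del10 (1.20 to 6.70) and 2.04 in ins2, where the interval included 1 (0.844 to 4.99). The ins2 ratio of Ero1l lay so close to 2-fold that it fell under it with a pseudocount of 32 or with median-of-ratios scaling.

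P4hb, the classical protein disulfide isomerase, had 2741 normalized counts in del10, 2159 in ins2 and 1503 in WT. Its ratio to WT was 1.82 in del10 (1.19 to 3.04) and 1.44 in ins2 (0.913 to 2.42). Pdia6 had 1486 in del10, 1458 in ins2 and 1558 in WT, close to level in the 3 libraries. Txndc5, an isomerase with thioredoxin domains, and Ero1lb, the paralog of Ero1l, had log2 ratios to WT of -0.51 and -0.65 in del10 and of 0.14 and -0.44 in ins2. Pdia5 was outside the main set, with 73 reads in del10, none in ins2 and 90.0 in WT. The median log2 ratio of the 6 genes was 0.40 in del10 and 0.33 in ins2 against WT.

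ER-associated degradation returns misfolded proteins to the cytosol for the proteasome. Of its 9 main-set genes, none was past 2-fold in del10 against WT, while in ins2 Edem2 was over 2-fold higher and Edem3, Syvn1 and Herpud1 were over 2-fold lower. Of all genes, 25.5% were past 2-fold in del10 against WT and 26.3% in ins2 against WT, and the difference between both counts was not tested. Herpud1, a membrane protein that organizes the ubiquitin ligase complex, had 3188 normalized counts in del10, 1416 in ins2 and 3724 in WT. The ins2 library stood apart, at 0.380 of WT (0.263 to 0.550), while del10 was at 0.856 of WT (0.629 to 1.17). Syvn1, the ubiquitin ligase HRD1, had 1298 in del10, 936 in ins2 and 2150.2 in WT. Both knock-in libraries lay below WT, at 0.604 in del10 (0.398 to 0.946) and 0.435 in ins2 (0.269 to 0.704). Mrpl49 overlaps Syvn1 on the opposite strand, with 287 reads in del10, 251 in ins2 and 228 in WT. The library kit keeps strand, but no source used here says whether the counting made use of it.

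The EDEM proteins trim mannose from misfolded glycoproteins, and their genes did not move together. Edem3 had 2578 normalized counts in del10, 1750.1 in ins2 and 4126 in WT, which is 0.625 of WT in del10 (0.459 to 0.845) and 0.424 in ins2 (0.301 to 0.596). Edem2 had 308 in del10, 703 in ins2 and 190.2 in WT. It was 3.69-fold higher in ins2 (1.10 to 17.8), from 2.84 fragments in WT, and its del10 interval included 1 (0.453 to 8.12). Edem1 had 1957 in del10, 2806 in ins2 and 2316 in WT, and was within 2-fold in each comparison.

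The other genes of this group stayed within 1.5-fold of WT in both libraries. Sel1l, the partner of HRD1, had 1079.6 normalized counts in del10, 1239 in ins2 and 855 in WT. Os9, a lectin that hands glycoproteins to that complex, had 2322 in del10, 2597 in ins2 and 1799 in WT. Derl1, a derlin of the membrane channel, had 1407 in del10, 1418 in ins2 and 1013 in WT, and its paralog Derl2 had 212 in del10, 272 in ins2 and 236 in WT. Derl3 was outside the main set, with 53 reads in del10, none in ins2 and 1.95 in WT, under 4 fragments in any library.

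None of the 6 main-set genes of the translocon and TRAP complex was past 2-fold in any comparison. Of all genes, 25.5% were in del10 against WT, 26.3% in ins2 against WT and 7.62% in del10 against ins2. Sec61a1, the channel subunit, came closest, with 1794 normalized counts in del10, 2261 in ins2 and 1145 in WT, which is 1.97-fold higher in ins2 (1.18 to 3.51) and 1.57-fold in del10 (0.939 to 2.80). Sec61b had 251 in del10, 243 in ins2 and 294 in WT. Sec61g was outside the main set, with 270.4 reads in del10, 146 in ins2 and 129 in WT. The 4 TRAP subunits Ssr1, Ssr2, Ssr3 and Ssr4, which assist the passage of nascent chains, had log2 ratios to WT of -0.30 to 0.49 in del10 and of -0.83 to 0.44 in ins2. The median log2 ratio of the 6 genes was 0.08 in del10 and -0.05 in ins2.

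The del10 library was set against ins2 as well, a comparison that does not use WT. Dnajb11 and Herpud1 were over 2-fold higher in del10 and Edem2 was over 2-fold lower, while 3.59% of all genes were over 2-fold higher and 4.03% lower. Herpud1 was 2.25-fold higher in del10 than in ins2 (1.69 to 2.99), and Dnajb11 was 2.02-fold higher (1.20 to 3.53). Dnajb11 fell under 2-fold with a pseudocount of 8 or 32 and with total-count or median-of-ratios scaling. Edem2 in del10 was at 0.439 of its ins2 level (0.237 to 0.795). Past 1.5-fold in either direction lay 9 of the 33 genes and 24.3% of all genes, and the fragment interval lay beyond 2-fold for 0 of the 33 genes and 0.382% of all genes.

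Below 2-fold, the del10 to ins2 interval also lay above 1 for Hspa5 (1.66 to 2.09), Ssr3 (1.21 to 2.27) and Edem3 (1.12 to 1.93), and below 1 for Edem1 (0.540 to 0.896). Ssr3 had 2159 normalized counts in del10, 1296 in ins2 and 1536 in WT. The median log2 ratio of the 33 genes was 0.03 (-0.20 to 0.39), and that of all genes was 0.01. The stem and progenitor sum was 17136 in del10 and 14080.1 in ins2 and the B-lineage sum 9432 in del10 and 8894 in ins2, which are closer to each other than either is to WT. The plasma cell sum, the basophil, mast cell and eosinophil sum and the stromal sum shared this pattern. The neutrophil and granule sum and the T and NK sum did not. The neutrophil and granule sum was 4185 in del10, 2171 in ins2 and 1766 in WT, so ins2 lay nearer to WT. The sum of 8 T and NK markers was 6622 in del10, 14504.5 in ins2 and 6047 in WT, so del10 lay nearer to WT. The part of any of these cells in the del10 to ins2 ratios was not tested.

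Set beside the promoter letters printed above, the genes with a match lay on both sides of WT. Of the 10 genes with ERSE or ERSE-II, 8 were in the main set. Of these 8, 2 lay above WT and 6 below it in del10, and the same counts held in ins2. Of all 7073 main-set genes, 3683 lay above WT in del10 and 3692 in ins2. For del10 against WT, 2 of the 8 (Hspa5 and Dnajc3) were over 2-fold higher and 0 over 2-fold lower, where 15.3% and 10.2% of all genes were. The median log2 ratio of the 8 was -0.15. In ins2 against WT, Dnajc3 was over 2-fold higher and Syvn1, Dnajb11 and Herpud1 were over 2-fold lower, with a median of -0.27. Of all genes, 15.7% were higher and 10.7% lower in ins2, and with 8 genes these counts are a description only. The 18 main-set genes whose window held neither motif had medians of 0.16 in del10 and 0.24 in ins2. Both ERSE-II genes, Dnajb11 and Herpud1, were the genes over 2-fold higher in del10 than in ins2, and with 2 genes this is a description only.

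**Figure D5:**
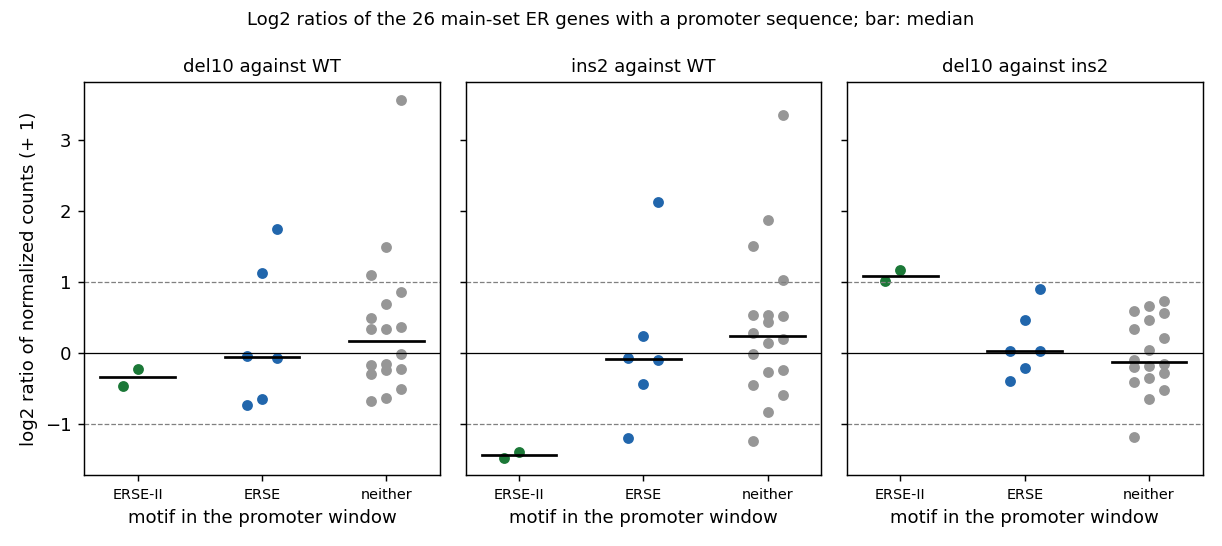
Log2 ratios in the 3 comparisons of main-set ER genes whose promoter window holds ERSE-II (2 genes), ERSE (6) or neither (18), with the median as a black bar and dashed lines at 2-fold. The ERSE-II genes lie at 1.01 and 1.17 in del10 against ins2, while the ERSE genes spread to both sides of 0.

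An exact match was found in 49 of the 27025 genes with a window, 10 of them among the 39 genes. Outside the 39 genes, 31 with an exact match were followed here, and 8 of these were in the main set. Their log2 ratios to WT were above 0 for 6 and below 0 for 2 in del10. In ins2 they were above 0 for 5 and below 0 for 3. Of all 7073 main-set genes, 3683 lay above 0 in del10 and 3692 in ins2, and with 8 genes these counts are a description only. Hnrnpa3 and Rcl1 were above WT in both knock-in libraries, Lrif1 (-0.44 in del10 and -0.05 in ins2) and Pan2 (-0.44 in del10 and -0.33 in ins2) were below it, and Rbm39 was at 0.14 in del10 and -0.12 in ins2. The other 3 are Calr itself, Canx, which encodes the related membrane chaperone calnexin, and Nucb1. Calr had 7299.8 normalized counts in del10, 4679 in ins2 and 3799.8 in WT, and its log2 ratio to WT was 0.94 in del10 and 0.30 in ins2. Canx had 6076 in del10, 5348 in ins2 and 4146 in WT, and its log2 ratio to WT was 0.55 in del10 and 0.37 in ins2. Nucb1, a calcium-binding protein, had 2581 in del10, 1916 in ins2 and 930.2 in WT and was over 2-fold higher in each knock-in library.

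Other genes of the ER and early secretory pathway were taken from 5 further lists. Genes are named here by the size of their ratio of del10 to WT, so large ratios follow from the choice. Against WT, the fragment interval lay beyond 2-fold for 0 genes of these lists in del10, where it did for 3.04% of all genes. In ins2 it did for 1 coat gene, and for 2.63% of all genes. Main-set genes that lay under its cut in WT passed the filter through the knock-in libraries, so their higher ratios are in part built in. This applies to the counts of higher genes in these lists and to the shares of all genes. Of 22 main-set genes in a list of other ER folding genes, 7 were over 2-fold higher and 1 lower in del10, where 15.3% of all genes were higher and 10.2% lower, and 5 were higher and 1 lower in ins2, where 15.7% were higher and 10.7% lower, with a median log2 ratio of 0.69 in del10 and of 0.32 in ins2. Its largest ratios of del10 to WT were those of Qsox1, a sulfhydryl oxidase, with 371 normalized counts in del10, 524 in ins2 and 85.8 in WT, and of Dnajc10, a reductase with a J domain, with 681 in del10, 790.5 in ins2 and 169 in WT. Mogs, the glucosidase that starts glycan trimming, had 692 in del10, 962 in ins2 and 195 in WT. These genes lay above WT in both knock-in libraries, but their WT values rest on few fragments, at about 61 reads each. Qsox1, Dnajc10 and Mogs also lay under the cut of the main set in WT. They entered it through the knock-in libraries, so their distance from WT is in part built into the selection. The WT reads were 78.0 for Qsox1, 154 for Dnajc10 and 177 for Mogs.

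Of 21 main-set genes of other ER-associated degradation, 4 were over 2-fold higher and 3 lower in del10 (15.3% and 10.2% of all genes), and 5 were higher and 3 lower in ins2 (15.7% and 10.7% of all genes). Its largest ratios of del10 to WT were those of the ubiquitin-conjugating enzyme gene Ube2g2, with 307 normalized counts in del10, 323 in ins2 and 31.9 in WT, and of Ube2j2, with 495 in del10, 655 in ins2 and 103 in WT. The ubiquitin ligase gene Rnf139 had 686 in del10, 797 in ins2 and 211 in WT. Their WT values rest on 29.0 reads for Ube2g2, 93.8 for Ube2j2 and 192 for Rnf139, which are few fragments. Ube2g2, Ube2j2 and Rnf139 lay under the cut of the main set in WT as well. They entered it through the knock-in libraries, so their distance from WT is in part built into the selection. Of 22 genes of oligosaccharyltransferase, signal peptidase and targeting, 1 was over 2-fold higher and 1 lower in del10, and 3 were higher and 0 lower in ins2, beside the same shares of all genes. Srprb, a subunit of the signal recognition particle receptor, was the lower gene in del10, with 224 in del10, 435 in ins2 and 636 in WT.

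Of 21 coat genes of COPII and COPI vesicles, 5 were over 2-fold higher and 0 lower in del10, where 15.3% and 10.2% of all genes were, and 3 were higher and 0 lower in ins2, where 15.7% and 10.7% of all genes were. The COPII subunit gene Sec24d had 267 normalized counts in del10 and 734 in ins2 and was listed at 0 in WT. Kdelr1, the receptor that returns KDEL proteins to the ER, had 485 in del10, 360.2 in ins2 and 107.8 in WT. Its WT value came from 98 reads. Both Sec24d and Kdelr1 lay under the cut of the main set in WT. They entered it through the knock-in libraries, so their distance from WT is in part built into the selection. Of 12 genes of the PERK and ATF4 branch, 2 were over 2-fold higher and 2 lower in each comparison with WT, beside those same shares. Ddit4, a stress-induced inhibitor of mTORC1, had 2232 in del10, 1791 in ins2 and 724 in WT, and Eif2ak1, an eIF2 alpha kinase that responds to heme, had 653 in del10, 741 in ins2 and 1534 in WT.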

How the data were processed

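RNA of sorted LSK cells (5 ng total RNA, ribosomal RNA depleted, directional kit) was read as 75-bp single-end reads, 1 library per genotype. Tools in the submitters' processing notes are TopHat2 2.1.1 with Bowtie2 2.2.3, Trimmomatic 0.32 and bcl2fastq 2.20, with the build mm10, and the authors counted reads per RefSeq gene. No source used here says whether duplicate reads were removed. The authors deposited an estimated count per gene, which includes fractions of reads, and a log2 value after TMM scaling.

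The TMM factor of each library (1.02 in del10, 0.984 in ins2, 1.10 in WT) was recovered from the deposited log2 values and the deposited estimated counts. Counts were rounded for exact binomial intervals. The ratios, the 2-fold calls and the intervals on reads were tested on simulated read counts. The simulation drew reads independently, without repeated reads of 1 starting fragment. It therefore does not show that intervals on reads cover the counting error in these data. The fragment unit and the intervals on fragments were not simulated. Calls are log2 ratios past 2-fold with a pseudocount of 1. All 39 genes are accounted for. From each other ER list, named genes come from the 3 main-set genes with the largest absolute log2 ratio of del10 against WT, and Calr, Kit, Ly6a, Cd34 and Rn45s were named in advance. Irf4 is among the 3 of its marker list. Canx, Nucb1 and the other genes with a motif were named after their values were seen. The members and lists were chosen with earlier results of these data known. Alternatives were pseudocounts of 8 and 32, other scalings, filters, thresholds and intervals. Sequences and motif windows are from RefSeq on GRCm38.p6. Versions were NumPy 2.4.6, SciPy 1.17.1, pandas 2.3.3 and matplotlib 3.10.9 in Python 3.11.15.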

Additional observations from a re-analysis of the deposited data

How the results depend on the processing

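No paired analysis was possible because each genotype has 1 library, and no library could be left out of a comparison. With the other pseudocounts, scalings and zeros at a floor of 3 reads, the log2 ratios of the 33 genes kept their direction except those of Hsp90b1 (-0.01), Pdia6 (-0.02) and Sec61b (-0.0033) in del10 against ins2, which were 0.03, 0.03 and 0.04 with TMM and turned with total-count scaling. Ero1l (ins2 against WT) and Dnajb11 (del10 against ins2) fell under 2-fold in some of these. Scaling moved the median of all genes by under 0.1 on the log2 scale. The fragment unit is an estimate, and in WT 10 of the 33 genes rest on under 10 fragments.

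In del10 against WT, the count of higher genes was 5, and it became 3 at a mean normalized count of at least 1000 (19 genes), 10 at 1.5-fold and 1 with the fragment interval beyond 2-fold. The count of lower genes was 1, and it became 5 at 1.5-fold and 0 with intervals on reads or on fragments. In ins2 against WT, the count of higher genes was 5, and it became 2 at the minimum of 1000 and 1 with the fragment interval, and the 6 lower genes became 0 with the fragment interval. In del10 against ins2, the 2 higher genes became 1 with a pseudocount of 8 or 32, with total-count or median-of-ratios scaling, at the minimum of 1000 and with the interval on reads, 0 with the interval on fragments, 5 with no filter (38 genes) and 7 at 1.5-fold. The 1 lower gene became 2 at 1.5-fold and 0 at the minimum of 1000 and with intervals on reads or fragments. Fewer genes or stricter bounds lower these counts by construction. In the alternatives run, the median log2 ratio of the genes was -0.08 to 0.34 in del10 against WT, 0.12 to 0.28 in ins2 against WT and -0.01 to 0.13 in del10 against ins2. In del10 against WT the median was above 0 with no filter, at the minimum of 1000 and with the mean in its place, and below 0 otherwise.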
